A study of Mus musculus with 11 samples.

Results

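Cd28, Ctla4 and Icos are neighbours on mouse chromosome 1 and encode 3 receptors of the CD28 family on T cells. Chromatin accessibility around them was taken from an ATAC-seq table, in which a transposase has tagged open DNA and reads are gathered into peaks. A peak was assigned to the cluster when its centre lay nearest to a RefSeq start site of one of the 3 genes. This held for 65 of 38509 peaks, 23 nearest to Cd28, 21 to Ctla4 and 21 to Icos, spread over chr1:60745830-61139530 (GRCm38/mm10). Nearness to a start site says where a peak lies and not which gene it controls.

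The libraries came from 4 groups of sorted CD4 T cells. Anergic cells (n = 3) were CD44 high and FOXP3 negative, with high CD73, high FR4 and surface NRP1. Treg cells (n = 3) were positive for FOXP3 and CD25. Teff cells (n = 3) were CD44 high and FOXP3 negative with low CD73 and FR4, and naive cells (n = 2) were CD44 low. All cells came from wildtype C57BL/6 mice with a Foxp3-GFP reporter and a polyclonal T cell repertoire, from mixed spleen and lymph node, with no treatment. The groups were therefore set by surface and reporter proteins, and the age of the mice is not given. The labels number the replicates without saying whether each is a separate animal. P-values therefore set differences between groups against the spread of these libraries, which may be technical, and need not extend to animals.

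CD28 gives a T cell its main costimulatory signal when it binds CD80 or CD86 on an antigen-presenting cell, and antigen recognition without that signal is a classical route into anergy. CTLA-4 binds the same ligands more tightly and restrains activation. Treg cells carry it constantly, and other T cells make it after activation. ICOS appears after activation, binds ICOSL, signals mainly through PI3K, and is best known for its role in follicular helper T cells.

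The DNA of 5 peaks and of the Ctla4 promoter is shown because these are the places where the groups differed most or where the gene starts. Each line gives up to 300 bases at the centre of the peak, plus strand, GRCm38, with matches to the searched motifs in capitals. The first had the largest rise of Treg over Teff cells among the 65 peaks, and the second had the largest rise of anergic over Teff cells. The third, downstream of Icos, was highest in anergic cells, its neighbour the fourth was highest in Teff cells, and the fifth had the largest rise of Teff over naive cells. The promoter line holds the 250 bases before the Ctla4 start site, from RefSeq (GRCm38.p6).
Ctla4 peak 21.8 kb upstream, chr1:60887040-60887339: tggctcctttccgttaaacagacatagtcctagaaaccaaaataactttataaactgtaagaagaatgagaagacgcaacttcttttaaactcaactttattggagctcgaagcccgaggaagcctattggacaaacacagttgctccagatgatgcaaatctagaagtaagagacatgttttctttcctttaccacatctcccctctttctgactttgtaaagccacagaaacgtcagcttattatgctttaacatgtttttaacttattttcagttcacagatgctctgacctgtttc
Ctla4 peak 6.3 kb upstream, chr1:60902543-60902842: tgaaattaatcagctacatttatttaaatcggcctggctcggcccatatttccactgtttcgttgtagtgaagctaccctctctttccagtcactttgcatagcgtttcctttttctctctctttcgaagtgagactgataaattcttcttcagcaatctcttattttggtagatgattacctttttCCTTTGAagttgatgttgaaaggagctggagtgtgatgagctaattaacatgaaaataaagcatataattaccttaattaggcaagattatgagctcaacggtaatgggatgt
Icos peak 57.6 kb downstream, chr1:61035329-61035628: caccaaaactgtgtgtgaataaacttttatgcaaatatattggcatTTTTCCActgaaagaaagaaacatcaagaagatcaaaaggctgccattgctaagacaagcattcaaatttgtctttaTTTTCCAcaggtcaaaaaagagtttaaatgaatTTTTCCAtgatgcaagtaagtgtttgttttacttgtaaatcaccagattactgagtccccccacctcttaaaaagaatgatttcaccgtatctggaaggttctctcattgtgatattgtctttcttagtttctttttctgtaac
Icos peak 61.6 kb downstream, chr1:61039397-61039608: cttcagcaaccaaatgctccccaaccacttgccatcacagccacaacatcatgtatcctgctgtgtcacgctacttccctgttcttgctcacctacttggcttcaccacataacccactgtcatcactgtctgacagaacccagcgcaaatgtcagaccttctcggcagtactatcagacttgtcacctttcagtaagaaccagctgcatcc
Icos peak 76.7 kb downstream, chr1:61054421-61054720: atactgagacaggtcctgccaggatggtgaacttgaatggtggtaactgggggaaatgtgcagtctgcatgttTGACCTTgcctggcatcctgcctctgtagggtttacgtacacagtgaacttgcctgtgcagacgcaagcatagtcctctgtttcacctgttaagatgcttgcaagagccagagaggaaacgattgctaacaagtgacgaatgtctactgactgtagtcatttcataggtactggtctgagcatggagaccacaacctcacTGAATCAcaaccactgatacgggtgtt
Ctla4 promoter, chr1:60908775-60909024: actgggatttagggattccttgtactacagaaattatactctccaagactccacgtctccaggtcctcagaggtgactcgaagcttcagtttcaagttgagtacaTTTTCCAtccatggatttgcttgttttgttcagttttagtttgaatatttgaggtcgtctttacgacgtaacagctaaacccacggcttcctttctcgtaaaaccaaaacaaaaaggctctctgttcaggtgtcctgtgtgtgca

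The capitals mark TTTTCCA, the minus strand reading of the NFAT motif TGGAAAA, in the Icos peak 57.6 kb downstream and in the Ctla4 promoter. NFAT is the factor that calcineurin releases to the nucleus after antigen recognition. The Icos window held 3 such matches, and 4 of 38441 windows in the table (0.0104%) held at least 3; this count was chosen after its values were seen. In the Ctla4 peak 6.3 kb upstream the capitals are a TCF and LEF match (CCTTTGA). In the Icos peak 76.7 kb downstream they are an NR4A match read on the minus strand (TGACCTT) and an AP-1 match (TGANTCA). The window of the Ctla4 peak 21.8 kb upstream held none of the motifs searched. The Icos peak 61.6 kb downstream is shorter than the window, and its 212 bases held none, while the window of 300 bases around it held 1 RUNX match that does not lie whole within the peak. Of 32851 promoters of the same length in the RefSeq table, 5.93% held an NFAT match.

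Reads in peaks ran from 14668425 to 68818591 per library, and all values are given in the deposited units of signal, of which 1 read was worth 0.527 to 2.13. Of the CD4 T cell markers Cd4, Cd3e, Cd3d and Cd5, 4 of 4 had peaks. Of the B cell markers 0 of 4 had one, of the myeloid markers 1 of 4 (Itgam), of the CD8 T cell markers 1 of 2 (Cd8b1, without Cd8a) and of the NK cell markers 1 of 2 (Klrb1c, without Ncr1). Itgam signal was 16.1 to 31.1 in anergic, 20.3 to 45.0 in Treg, 36.7 to 57.5 in Teff and 141 to 212 in naive libraries. Cd8b1 signal was 115 to 285 in anergic, 613 to 750.03 in Treg, 179 to 227 in Teff and 1117 to 1149.7 in naive libraries. Both were thus highest in the naive libraries, and their part in the comparisons with naive cells was not tested. Klrb1c signal was far larger, at 19290 to 24865 in anergic, 17608 to 22978 in Treg, 19306 to 21161 in Teff and 21468 to 21982 in naive libraries. It passed in none of the 6 comparisons. Its peaks were assigned by nearness alone, and the part of NK cells was not tested. Foxp3, the Treg factor, stood at 96.0 to 184 in anergic, 1117 to 1597 in Treg, 14.0 to 63.3 in Teff and 7.74 to 15.4 in naive libraries.

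Compared per kilobase of peak, the 3 genes stood in a different order in different cells. In anergic libraries Ctla4 had 1086 ± 3.52 units per kb, Cd28 814 ± 39.7 and Icos 657 ± 29.4 (SD, n = 3). In Treg libraries the order was the same, with 1051 ± 153 for Ctla4, 626 ± 43.4 for Cd28 and 484 ± 47.95 for Icos. In Teff libraries Cd28 came first with 813 ± 18.2, then Icos with 617 ± 3.03 and Ctla4 with 461 ± 39.8, and in naive libraries (n = 2) they stood at 631 ± 28.8, 288 ± 24.5 and 233 ± 7.09. Within each group the libraries of the 3 genes did not overlap on this scale.

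**Figure D1:**
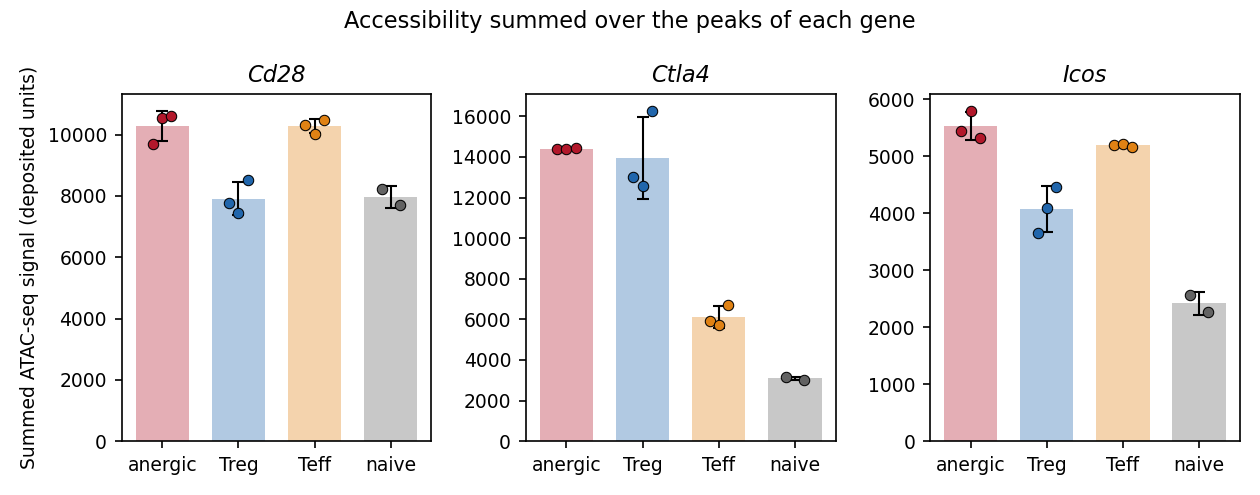
ATAC-seq signal summed over the 23 peaks of Cd28, the 21 of Ctla4 and the 21 of Icos (y axis, deposited units) in each group (x axis). Points are libraries, bars are means and error bars are SD; Ctla4 lies at 12565 or more in all anergic and Treg libraries and at 6710.4 or less in all Teff and naive libraries, while Cd28 and Icos are close in anergic and Teff libraries.

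Ctla4 set anergic and Treg cells apart from the other groups. Its summed signal was 14368, 14411 and 14461 in anergic, 13001, 12565 and 16284 in Treg, 5929, 5704 and 6710.4 in Teff and 3156 and 3023 in naive libraries. The anergic and Treg libraries overlapped each other and lay above all Teff libraries, which lay above the naive ones. The log2 fold change was 1.24 ± 0.09, adjusted p = 4.03e-11 for anergic over Teff, and 1.18 ± 0.09, adjusted p = 1.43e-10 for Treg over Teff (limma, Benjamini-Hochberg over 14233 genes; errors of fold changes are SE throughout). It was 2.22 ± 0.10, adjusted p = 5.19e-16 for anergic over naive, 2.16 ± 0.10, adjusted p = 2.64e-15 for Treg over naive and 0.98 ± 0.10, adjusted p = 1.6e-08 for Teff over naive. For anergic over Treg it was 0.06 ± 0.09, adjusted p = 0.654, and its sign turned under other scalings. Over all genes, 25.7% were called between anergic and Teff cells, 34.1% between Treg and Teff, 42.4% between anergic and naive, 48.3% between Treg and naive, 34.3% between Teff and naive and 37.3% in anergic over Treg, of which 27.4% of all genes were higher and 9.96% were lower. In a bulk library, fewer cells with the locus open and less open chromatin in each cell cannot be told apart.

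Foxp3 moved in the same direction as Ctla4 in anergic over Teff cells (2.33 ± 0.39, adjusted p = 3.57e-05), while Il2ra, which encodes the Treg sort marker CD25, was lower (-0.29 ± 0.09, adjusted p = 0.0181). The part of Foxp3-bearing cells in the Ctla4 values of anergic libraries was not tested. Cd8b1 was higher in Treg than in Teff cells (1.81 ± 0.21, adjusted p = 1.8e-07), and its part in that comparison was not tested either.

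Counted by peak, 17 of the 21 Ctla4 peaks were higher in anergic than in Teff cells and 0 were lower. Over all tested peaks 32.8% were called in that comparison, made up of 15.9% of all peaks that were higher and 16.8% that were lower. In Treg over Teff cells 18 Ctla4 peaks were higher and 1 lower, where 32.6% of all peaks were called. The median log2 fold change over the 21 peaks was 1.30 in anergic over Teff and 1.32 in Treg over Teff cells. Between anergic and Treg cells 2 peaks were higher and 3 lower, where 34.1% of all peaks were called, and the 2 became 4 with a pseudocount of 8 and 6 in a fit of those groups alone. The highest group mean fell in anergic cells at 10 Ctla4 peaks, in Treg cells at 11, and in Teff and naive cells at 0. Over all peaks it fell in anergic cells at 26.9%, in Treg at 17.8%, in Teff at 18.6% and in naive at 36.6%.

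The largest share of Ctla4 signal came from a broad intronic peak of 3884 bases centred 3.3 kb past the start site (chr1:60910378-60914261). Its values were 5449.7, 5306 and 5765 in anergic, 5124, 5009 and 6854 in Treg, 1532, 1836 and 2198 in Teff and 463 and 655 in naive libraries. Anergic and Treg libraries overlapped here and lay above all others, with 1.58 ± 0.14, adjusted p = 2.21e-08 for anergic over Teff and 1.61 ± 0.14, adjusted p = 2.23e-08 for Treg over Teff. This peak held 38.2% of the Ctla4 sum in anergic, 40.6% in Treg, 30.3% in Teff and 18.1% in naive cells. Without it the sums were 8906 in anergic, 8288 in Treg, 4259 in Teff and 2531 in naive cells, so the order of the group means was the same.

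The Ctla4 promoter peak spans the start site and part of the 5' UTR (chr1:60908582-60909612) and includes the promoter bases printed above with their NFAT match. Its values were 2235, 2130.2 and 2181 in anergic, 1765, 1688 and 2197 in Treg, 830.03, 715 and 815 in Teff and 749.9 and 612 in naive libraries. Anergic and Treg libraries overlapped and lay above all Teff and naive libraries, which overlapped each other. On the log2 scale the fold change was 1.47 ± 0.12, adjusted p = 9.56e-09 for anergic over Teff and 1.25 ± 0.12, adjusted p = 1e-07 for Treg over Teff. For Teff over naive it was 0.21 ± 0.14, adjusted p = 0.228, so the promoter did not pass the test where the intronic peak did (1.73 ± 0.16, adjusted p = 1.2e-08).

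Some Ctla4 peaks away from the start site separated anergic from Treg cells even though the gene's sums did not. Of the 21 Ctla4 peaks 23.8% were called in this comparison, fewer than the 34.1% of all peaks. The peaks 6.3 and 21.8 kb upstream had its largest rise and largest fall. The peak 6.3 kb upstream (chr1:60902399-60902986) had 779, 730.1 and 687 in anergic, 215, 187 and 292 in Treg, 83.8, 102 and 86.7 in Teff and 8.94 and 10.8 in naive libraries. Every anergic library lay above every Treg library, every Treg library above every Teff library, and the naive libraries were lowest, with 11 and 14 reads. On the log2 scale the fold change was 3.00 ± 0.22, adjusted p = 1.53e-09 for anergic over Teff and 1.68 ± 0.22, adjusted p = 4.78e-06 for anergic over Treg. Anergic over naive cells gave a signal ratio of 72.8 (95% exact counting interval 49.2 to 113, which covers counting error only). This was the single Ctla4 peak called higher in anergic cells than in each of the other 3 groups, a pattern held by 7.44% of all peaks. Anergic cells were called lower than each of the others at 0 of the 65 cluster peaks, against 5.73% of all peaks.

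The peak 21.8 kb upstream (chr1:60886928-60887450) was instead highest in Treg cells. Its values were 109, 97.0 and 98.1 in anergic, 694, 492 and 724 in Treg, 52.6, 36.3 and 66.7 in Teff and 9.75 and 13.9 in naive libraries. Treg libraries lay far above all others, and anergic libraries came next without overlap. The log2 fold change was 3.61 ± 0.27, adjusted p = 3.07e-09 for Treg over Teff and -2.62 ± 0.27, adjusted p = 3.11e-07 for anergic over Treg. Anergic over Teff was 0.99 ± 0.27, adjusted p = 0.00643, and this call was lost without Teff replicate 2 (adjusted p = 0.0513). Treg over naive cells gave a ratio of 55.6 (95% exact counting interval 38.7 to 82.7). Together with the peak 1.4 kb upstream (333 in Treg cells against 179 in anergic, 142 in Teff and 210.4 in naive cells on average), it was called higher in Treg cells than in each of the other 3 groups, as were 1.63% of all peaks.

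**Figure D2:**
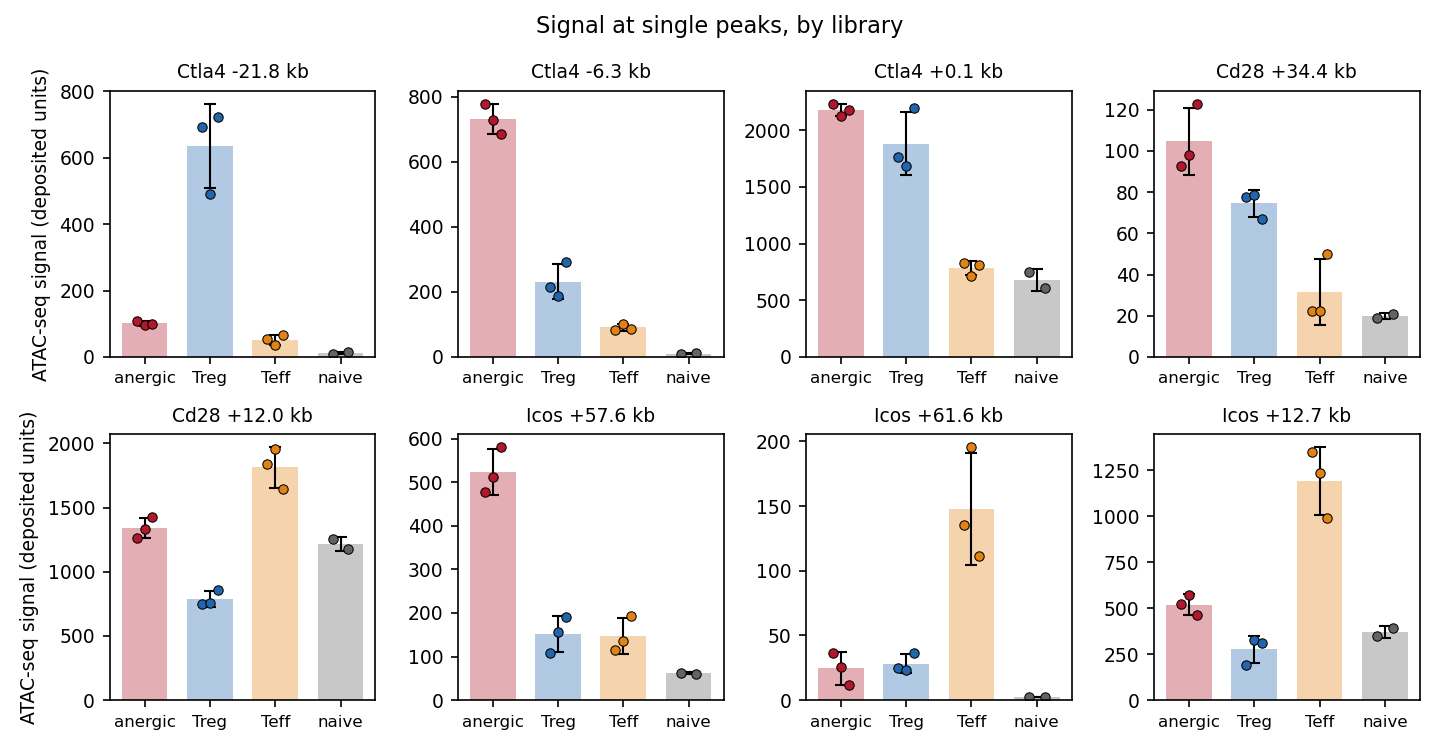
ATAC-seq signal (y axes, deposited units, each from 0) at 8 peaks named by gene and distance from the start site, in each group (x axes). Points are libraries, bars are means and error bars are SD; the Ctla4 peak 21.8 kb upstream is highest in Treg libraries, the Ctla4 peak 6.3 kb upstream and the Icos peak 57.6 kb downstream in anergic libraries, and the Icos peaks at 12.7 and 61.6 kb in Teff libraries.

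Other Ctla4 peaks differed mainly from naive cells. The peak 33.6 kb upstream (chr1:60875264-60875654) had 196, 255 and 206 in anergic, 274, 228 and 406 in Treg, 271, 253 and 287 in Teff and 24.4 and 27.1 in naive libraries. The anergic, Treg and Teff libraries overlapped one another and all lay far above the naive libraries, with 3.03 ± 0.24 for anergic over naive, 3.46 ± 0.24 for Treg over naive and 3.34 ± 0.24 for Teff over naive. The peak 11.5 kb downstream (chr1:60920137-60920897) had 979.9, 1218 and 999 in anergic, 508, 579 and 694 in Treg, 866, 826 and 838 in Teff and 89.4 and 115 in naive libraries. Here anergic libraries lay above Teff libraries without passing the test (0.33 ± 0.15, adjusted p = 0.0984) and above Treg libraries (0.85 ± 0.15, adjusted p = 0.000162). It was the single Ctla4 peak lower in Treg than in Teff cells (-0.52 ± 0.15, adjusted p = 0.0106), and that call was lost without Treg replicate 1 (adjusted p = 0.0685).

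A Ctla4 peak 26.0 kb upstream (chr1:60882868-60883113) was open in naive cells. Its values were 126, 140.2 and 141 in anergic, 234, 266 and 227 in Treg, 104, 76.0 and 80.0 in Teff and 228 and 206 in naive libraries. Treg and naive libraries overlapped at the top, Teff libraries were lowest and anergic libraries lay between them. Teff over naive was -1.33 ± 0.22, adjusted p = 5.96e-05, and Treg over Teff was 1.48 ± 0.20, adjusted p = 7.15e-06. Anergic over naive was -0.67 ± 0.22, adjusted p = 0.0158, a call lost without naive replicate 1 (adjusted p = 0.118). Anergic over Treg was -0.83 ± 0.20, adjusted p = 0.00299. Anergic over Teff was 0.65 ± 0.20, adjusted p = 0.0145, a call lost without Teff replicate 2 (adjusted p = 0.0689). It was the single cluster peak called lower in Teff cells than in each of the other 3 groups, against 1.05% of all peaks.

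Against naive cells, 18 Ctla4 peaks were higher and 1 lower in anergic cells, where 50.5% of all peaks were called, 25.3% higher and 25.1% lower. In Treg over naive cells 19 were higher and 0 lower, against 45.3% of all peaks called. In Teff over naive cells 14 were higher and 1 lower, the 1 becoming 2 without naive replicate 2, against 40.1% of all peaks called. Naive cells were called lower than each of the other 3 groups at 14 of the 21 Ctla4 peaks, a pattern held by 14.7% of all peaks.

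Icos, the inducible costimulator, was lowest in naive cells and lower in Treg than in anergic or Teff cells. Its summed signal was 5451, 5804 and 5328 in anergic, 3657, 4102 and 4462 in Treg, 5194, 5219.6 and 5169 in Teff and 2566 and 2275 in naive libraries. Naive libraries were lowest, Treg libraries came next, and the anergic and Teff libraries were highest and close to each other without overlap. The log2 fold change of the sum was 1.19 ± 0.10, adjusted p = 8.68e-11 for anergic over naive, 0.75 ± 0.10, adjusted p = 7.44e-07 for Treg over naive and 1.10 ± 0.10, adjusted p = 8.54e-10 for Teff over naive. It was 0.44 ± 0.09, adjusted p = 0.000284 for anergic over Treg and -0.36 ± 0.09, adjusted p = 0.00257 for Treg over Teff. For anergic over Teff it was 0.09 ± 0.09, adjusted p = 0.52, and did not pass. Over all genes 27.4% were higher and 9.96% lower in anergic over Treg, and 10.8% higher and 23.3% lower in Treg over Teff. Under the settings other than leaving out a library, Icos ran from 0.31 to 0.44 and from -0.36 to -0.25 in these comparisons. Both calls held.

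By peak, 8 of the 21 Icos peaks were higher in anergic than in Teff cells and 2 were lower (47.6% called, against 32.8% of all peaks). The 8 fell to 5 when anergic replicate 1, anergic replicate 3 or Teff replicate 2 was left out. In anergic over Treg cells 9 were higher and 1 lower (47.6%, against 34.1% of all peaks), and the 9 fell to 5 without Treg replicate 1. In Treg over Teff cells 3 were higher and 4 lower, a share of 33.3% that is close to the 32.6% of all peaks called, and the 4 fell to 2 without Treg replicate 1 and the 3 became 5 by edgeR. Icos peaks at 3.6 kb upstream and 2.1, 49.0 and 57.6 kb downstream were called higher in anergic cells than in each of the other 3 groups. Over the cluster this held for 5 of 65 peaks, a share close to the 7.44% of all peaks.

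The Icos promoter peak (chr1:60977534-60978245) was open in all groups. Its values were 880.4, 713 and 732 in anergic, 579.98, 485 and 548 in Treg, 650.04, 604 and 542 in Teff and 713 and 600.04 in naive libraries. The anergic libraries lay above the Treg and Teff libraries and overlapped the naive ones. Anergic over Treg was 0.52 ± 0.14, adjusted p = 0.00554. Anergic over Teff was 0.37 ± 0.14, adjusted p = 0.0429, and this call was lost when total reads in peaks set the scale (adjusted p = 0.0597), in a fit of the 2 groups alone (0.0571) and when any of the anergic replicates 1 and 3, Treg replicate 3 or Teff replicates 2 and 3 was left out (0.0504 to 0.174). Teff over naive was -0.13 ± 0.15, adjusted p = 0.524, and did not pass.

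The Icos peak 57.6 kb downstream (chr1:61035207-61035749), whose window holds the 3 NFAT matches printed above, was highest in anergic cells. Its values were 477, 512 and 581 in anergic, 108, 158 and 189.9 in Treg, 114, 135 and 193 in Teff and 63.4 and 60.4 in naive libraries. The anergic libraries stood apart from all others, Treg and Teff libraries overlapped, and naive libraries were lowest. The log2 fold change was 1.85 ± 0.23, adjusted p = 1.77e-06 for anergic over Teff and 1.81 ± 0.23, adjusted p = 3.67e-06 for anergic over Treg. Treg over Teff was 0.04 ± 0.23, adjusted p = 0.914.

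The Icos peak 49.0 kb downstream (chr1:61026746-61027059) had a like order. Its values were 214, 211 and 187 in anergic, 59.7, 80.9 and 134 in Treg, 38.8, 46.2 and 70.0 in Teff and 4.06 and 8.52 in naive libraries. Anergic libraries were highest without overlap, Treg and Teff libraries overlapped, and naive libraries held 5 and 11 reads. Anergic over Teff was 2.00 ± 0.36, adjusted p = 0.000129. Anergic over Treg was 1.22 ± 0.36, adjusted p = 0.0108, a call lost without Treg replicate 1 (adjusted p = 0.0708). Anergic over naive cells gave a ratio of 31.9 (95% exact counting interval 19.5 to 56.1).

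In the same stretch other Icos peaks were highest in Teff cells. The peak 61.6 kb downstream (chr1:61039397-61039608) had 36.5, 25.8 and 11.4 in anergic, 24.8, 23.4 and 36.7 in Treg, 136, 196 and 112 in Teff and 2.44 and 2.32 in naive libraries. Teff libraries lay above all others, anergic and Treg libraries overlapped, and naive libraries held 3 reads each. Anergic over Teff was -2.64 ± 0.48, adjusted p = 0.000181 and Treg over Teff was -2.33 ± 0.48, adjusted p = 0.000789. Teff over naive cells gave a ratio of 64.6 with a 95% exact counting interval of 29.5 to 177. The peaks at 57.6 and 61.6 kb are neighbours in the table and differed in opposite directions between anergic and Teff cells.

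The peak 76.7 kb downstream (chr1:61054415-61054725), printed above with its AP-1 and NR4A matches, had 129, 149 and 124 in anergic, 54.1, 129.8 and 113 in Treg, 275, 268 and 280.02 in Teff and 8.94 and 0.774 in naive libraries. Teff libraries were highest without overlap, and anergic and Treg libraries overlapped. Treg over Teff was -1.56 ± 0.43, adjusted p = 0.00826, a call lost without Treg replicate 1 (adjusted p = 0.0626), and anergic over Teff was -1.03 ± 0.43, adjusted p = 0.0729. The naive libraries held 11 reads and 1 read, the lowest value the table has in that library, and the fitted Teff over naive value of 6.03 ± 0.48, adjusted p = 1.78e-09 became 4.79 without naive replicate 2, 7.28 without naive replicate 1 and 4.53 with a pseudocount of 8. The ratio of Teff over naive signal was 57.4 (95% exact counting interval 32.7 to 112).

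An intronic Icos peak 12.7 kb past the start site (chr1:60990147-60991038), chosen after its values were seen, was also highest in Teff cells. Its values were 524, 574 and 462 in anergic, 189, 326 and 313 in Treg, 1351, 1238 and 992 in Teff and 349 and 395 in naive libraries. Each group stood apart from Teff without overlap, with -1.19 ± 0.18, adjusted p = 2.29e-05 for anergic over Teff, -2.14 ± 0.18, adjusted p = 1.48e-08 for Treg over Teff and 1.67 ± 0.20, adjusted p = 8.58e-07 for Teff over naive. With the peak at 61.6 kb and the Cd28 peak 12 kb past its start site, it was called higher in Teff cells than in each of the other 3 groups, as were 4.35% of all peaks.

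No Icos peak was called higher in Treg cells than in each of the other 3 groups, against 1.63% of all peaks. Treg cells had the highest mean at 5 of the 21, against 17.8% of all peaks. The peak 22.9 kb upstream (chr1:60954898-60955085) had 148, 159 and 121 in anergic, 200.5, 192 and 176 in Treg, 86.5, 81.8 and 81.7 in Teff and 73.9 and 60.4 in naive libraries. Treg libraries were highest and anergic libraries next, both without overlap with Teff libraries. Treg over Teff was 1.17 ± 0.22, adjusted p = 0.000288 and anergic over Teff was 0.76 ± 0.22, adjusted p = 0.00982. The small peak 123.9 kb downstream (chr1:61101734-61101892) had 48.1, 53.2 and 76.6 in anergic, 121, 93.7 and 116 in Treg, 76.1, 63.6 and 61.7 in Teff and 54.4 and 46.5 in naive libraries. Treg libraries were highest, with -0.90 ± 0.28, adjusted p = 0.0174 for anergic over Treg, and that call was lost when any of anergic replicates 1 and 2 or Treg replicates 1 and 3 was left out (0.0501 to 0.0665). Treg over naive was 1.11 ± 0.32, adjusted p = 0.00695, a call lost without naive replicate 2 (0.0609).

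The Icos peak with the highest mean over the 11 libraries lay 158.1 kb downstream (chr1:61135492-61136513). Its values were 539, 833 and 701 in anergic, 734, 828 and 941 in Treg, 719.96, 804 and 903 in Teff and 422 and 257 in naive libraries. The anergic, Treg and Teff libraries overlapped and all lay above the naive ones, with 1.04 ± 0.20, adjusted p = 0.000133 for anergic over naive, 1.33 ± 0.20, adjusted p = 1.19e-05 for Treg over naive and 1.29 ± 0.20, adjusted p = 2.01e-05 for Teff over naive. In all, 17 Icos peaks were higher in anergic than in naive cells, where 25.3% of all peaks were higher. In Treg over naive cells 18 were higher, against 22.3% of all peaks, and in Teff over naive cells 15 were higher, against 22.7% of all peaks. None of the 21 was lower in any of these 3 comparisons. Naive cells were called lower than each other group at 14 of the 21, against 14.7% of all peaks.

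**Figure D3:**
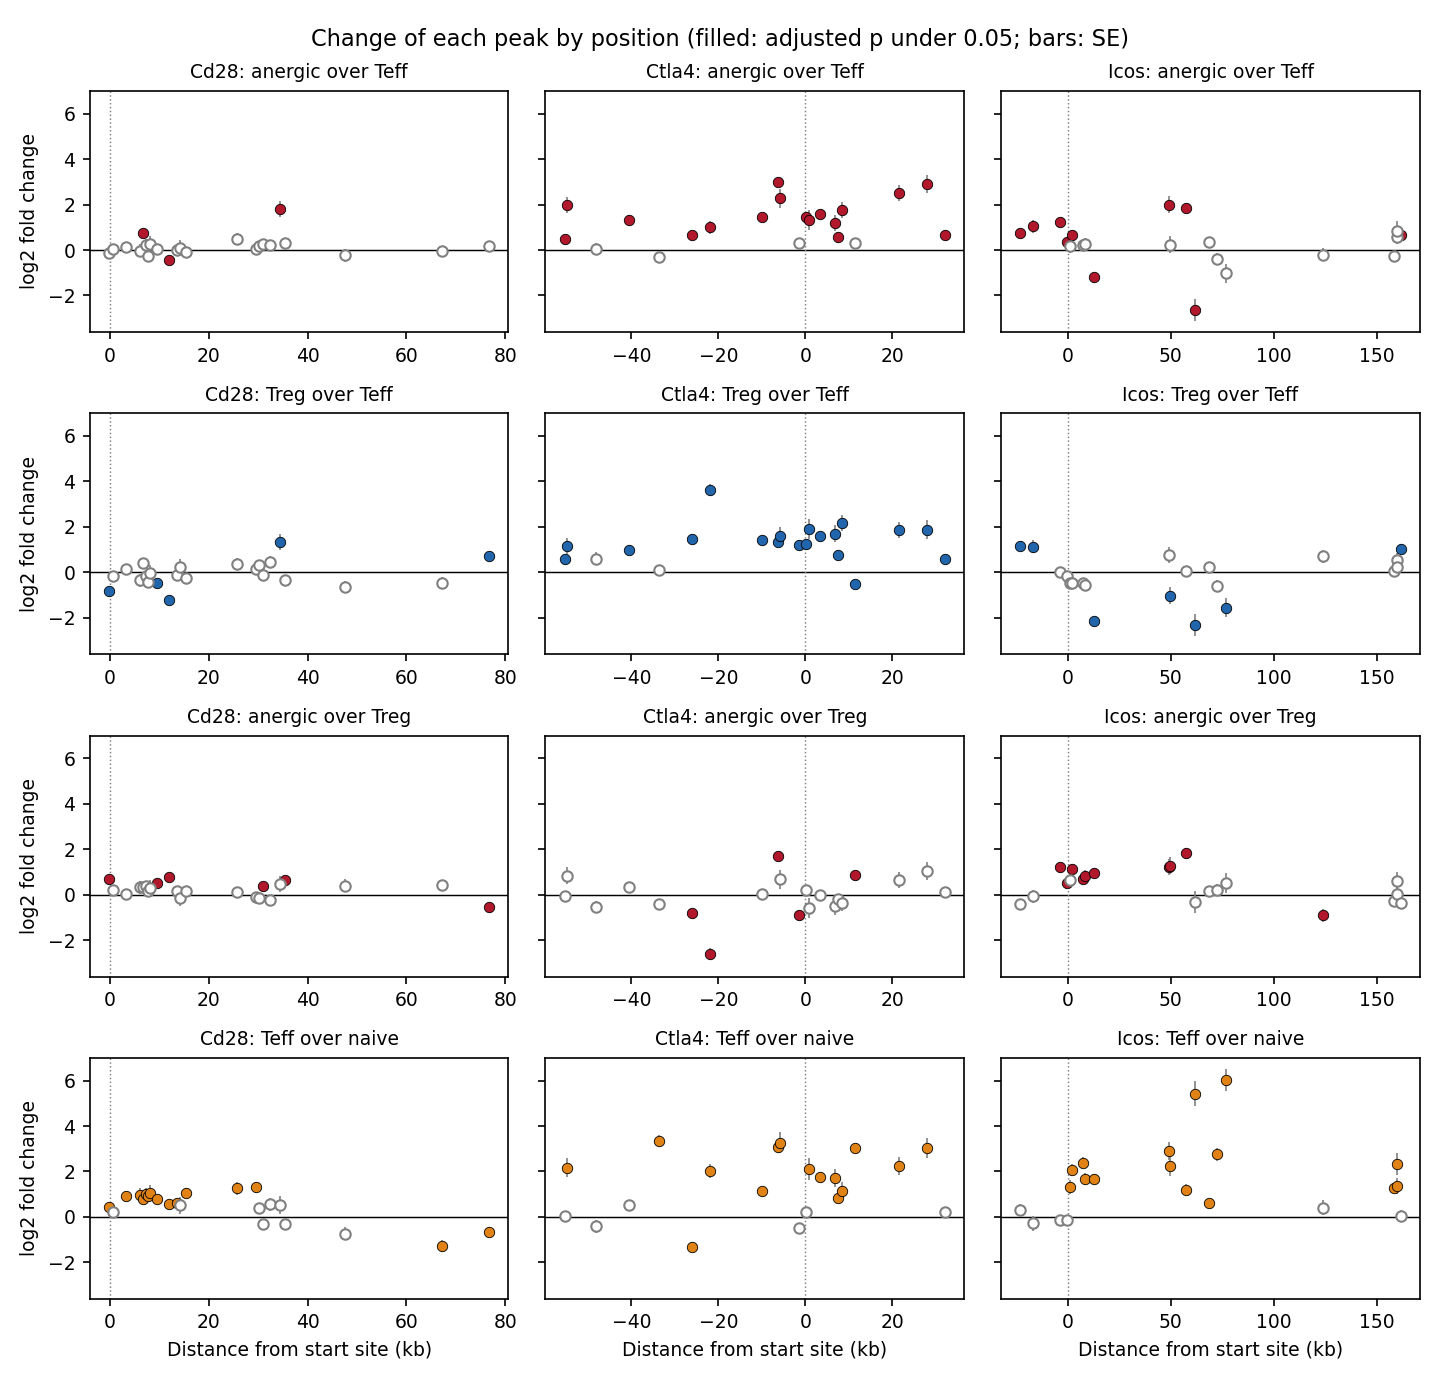
log2 fold change of each peak (y axis) against its distance from the start site of its gene (x axis, kb) for Cd28, Ctla4 and Icos in 4 comparisons. Filled points passed an adjusted p of 0.05 and bars are SE; Ctla4 points lie above 0 in anergic over Teff and Treg over Teff at most positions, Icos points between 49.0 and 76.7 kb go both ways, and most Cd28 points lie near 0 outside the comparison with naive cells.

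Cd28, the constitutive costimulatory receptor, was the most even of the 3 genes. Its summed signal was 9704, 10546 and 10597 in anergic, 7779, 7437 and 8511 in Treg, 10299, 10030.4 and 10487 in Teff and 8228 and 7714 in naive libraries. Anergic and Teff libraries overlapped at the top, and Treg and naive libraries overlapped below them. The log2 fold change was 0.38 ± 0.08, adjusted p = 0.000495 for anergic over Treg, -0.38 ± 0.08, adjusted p = 0.000513 for Treg over Teff, 0.37 ± 0.09, adjusted p = 0.00123 for anergic over naive and 0.37 ± 0.09, adjusted p = 0.00183 for Teff over naive. It was 0.00 ± 0.08, adjusted p = 0.997 for anergic over Teff. For Treg over naive it was -0.01 ± 0.09, adjusted p = 0.916, and it became 0.17 under scaling by total reads in peaks (adjusted p = 0.0467). Over all genes 27.4% were higher and 9.96% lower in anergic over Treg, and 10.8% higher and 23.3% lower in Treg over Teff. Under the settings other than leaving out a library, Cd28 ran from 0.24 to 0.38 and from -0.38 to -0.27 in these comparisons. Both calls held.

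By peak, 2 of 23 Cd28 peaks were higher and 1 lower in anergic than in Teff cells, a share of 13% against 32.8% of all peaks, and the 2 became 1 without Teff replicate 2. In Treg over Teff cells 2 were higher and 3 lower (21.7% called, against 32.6% of all peaks). In anergic over Treg cells 5 were higher and 1 lower (26.1%, against 34.1%). That 1 became 0 without anergic replicate 2 or any Treg replicate. Against naive cells 14 were higher and 2 lower in anergic cells (69.6%, against 50.5% of all peaks), and the 14 fell to 9 without naive replicate 2 and the 2 to 1 without naive replicate 1. In Treg over naive cells 11 were higher and 6 lower (73.9%, against 45.3%), and the 6 fell to 3 without naive replicate 1 or under scaling by total reads in peaks. In Teff over naive cells 13 were higher and 2 lower (65.2%, against 40.1%), and the 2 became 1 without Teff replicate 2 or naive replicate 2 and 4 in a fit of those groups alone.

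The Cd28 promoter peak (chr1:60745830-60746624) had the highest mean of the gene over the 11 libraries and was lowest in Treg cells. Its values were 1969.7, 2105 and 1748 in anergic, 1247, 1062 and 1269 in Treg, 2334, 2132 and 1888 in Teff and 1620.1 and 1502 in naive libraries. Treg libraries lay below all others, naive libraries came next, and anergic and Teff libraries overlapped. On the log2 scale the fold change was -0.83 ± 0.11, adjusted p = 8.95e-06 for Treg over Teff and 0.70 ± 0.11, adjusted p = 6.89e-05 for anergic over Treg. Treg over naive was -0.39 ± 0.13, adjusted p = 0.0159, a call lost when total reads in peaks set the scale (0.13), without Treg replicate 2 (0.0658) and without naive replicate 1 (0.133). Teff over naive was 0.44 ± 0.13, adjusted p = 0.00909, a call lost without naive replicate 2 (0.0889). Anergic over naive was 0.31 ± 0.13, adjusted p = 0.0474, a call lost under 7 of 20 alternatives.

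An intronic Cd28 peak 12 kb past the start site (chr1:60757718-60759145) had the largest fall of the gene in Treg over Teff cells. Its values were 1263, 1337 and 1424 in anergic, 748, 759.9 and 862 in Treg, 1840.1, 1959 and 1645 in Teff and 1256 and 1181 in naive libraries. No groups overlapped here, with Teff libraries highest and Treg libraries lowest, though anergic over naive did not pass (0.14 ± 0.13, adjusted p = 0.387). Treg over Teff was -1.20 ± 0.11, adjusted p = 6.04e-08 and anergic over Teff was -0.43 ± 0.11, adjusted p = 0.00434. Anergic over Treg was 0.76 ± 0.11, adjusted p = 2.2e-05, and Teff over naive was 0.57 ± 0.13, adjusted p = 0.000919. With the promoter peak, it was called lower in Treg cells than in each of the other 3 groups, as were 4.1% of all peaks.

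The Cd28 peak 34.4 kb downstream (chr1:60780685-60780849) was the one with the largest rise of the gene in anergic over Teff cells. Its values were 92.8, 98.0 and 123 in anergic, 77.7, 78.8 and 67.1 in Treg, 22.2, 22.3 and 50.003 in Teff and 18.7 and 20.9 in naive libraries. Anergic libraries were highest, Treg libraries next, and Teff and naive libraries low, with no overlap between groups. Anergic over Teff was 1.80 ± 0.35, adjusted p = 0.000384, Treg over Teff was 1.32 ± 0.35, adjusted p = 0.00659 and anergic over naive was 2.34 ± 0.40, adjusted p = 3.51e-05. Anergic over Treg was 0.48 ± 0.35, adjusted p = 0.317. The Cd28 peak 29.6 kb downstream (chr1:60775649-60776288) had 179, 260.4 and 235 in anergic, 207, 253 and 267 in Treg, 175, 235 and 252 in Teff and 109 and 71.2 in naive libraries. The anergic, Treg and Teff libraries overlapped above the naive ones, with 1.32 ± 0.24 for anergic over naive, 1.44 ± 0.24 for Treg over naive and 1.30 ± 0.24 for Teff over naive.

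Cd28 also held a peak that was highest in naive cells, 67.2 kb downstream (chr1:60813487-60813733). Its values were 91.2, 104 and 77.2 in anergic, 74.3, 55.3 and 74.7 in Treg, 88.6, 78.5 and 120.01 in Teff and 238 and 225 in naive libraries. Naive libraries lay above all others, with -1.35 ± 0.28, adjusted p = 0.000312 for anergic over naive, -1.76 ± 0.28, adjusted p = 2.4e-05 for Treg over naive and -1.29 ± 0.28, adjusted p = 0.000793 for Teff over naive. It was the single peak of the 65 called higher in naive cells than in each of the other 3 groups, against 8.99% of all peaks. The last Cd28 peak, 76.7 kb downstream (chr1:60823020-60823233), had 197, 148 and 218 in anergic, 270.3, 264 and 268 in Treg, 174, 149 and 170.01 in Teff and 238 and 284 in naive libraries. Treg and naive libraries overlapped above the anergic and Teff ones, with 0.70 ± 0.19, adjusted p = 0.00611 for Treg over Teff. Its anergic over Treg value of -0.53 ± 0.19, adjusted p = 0.0322 was lost without any 1 of anergic replicate 2 and Treg replicates 1 to 3 (0.0638 to 0.168), and its Teff over naive value of -0.66 ± 0.21, adjusted p = 0.0148 without Teff replicate 2 or naive replicate 2 (0.0549 and 0.146).

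**Figure D4:**
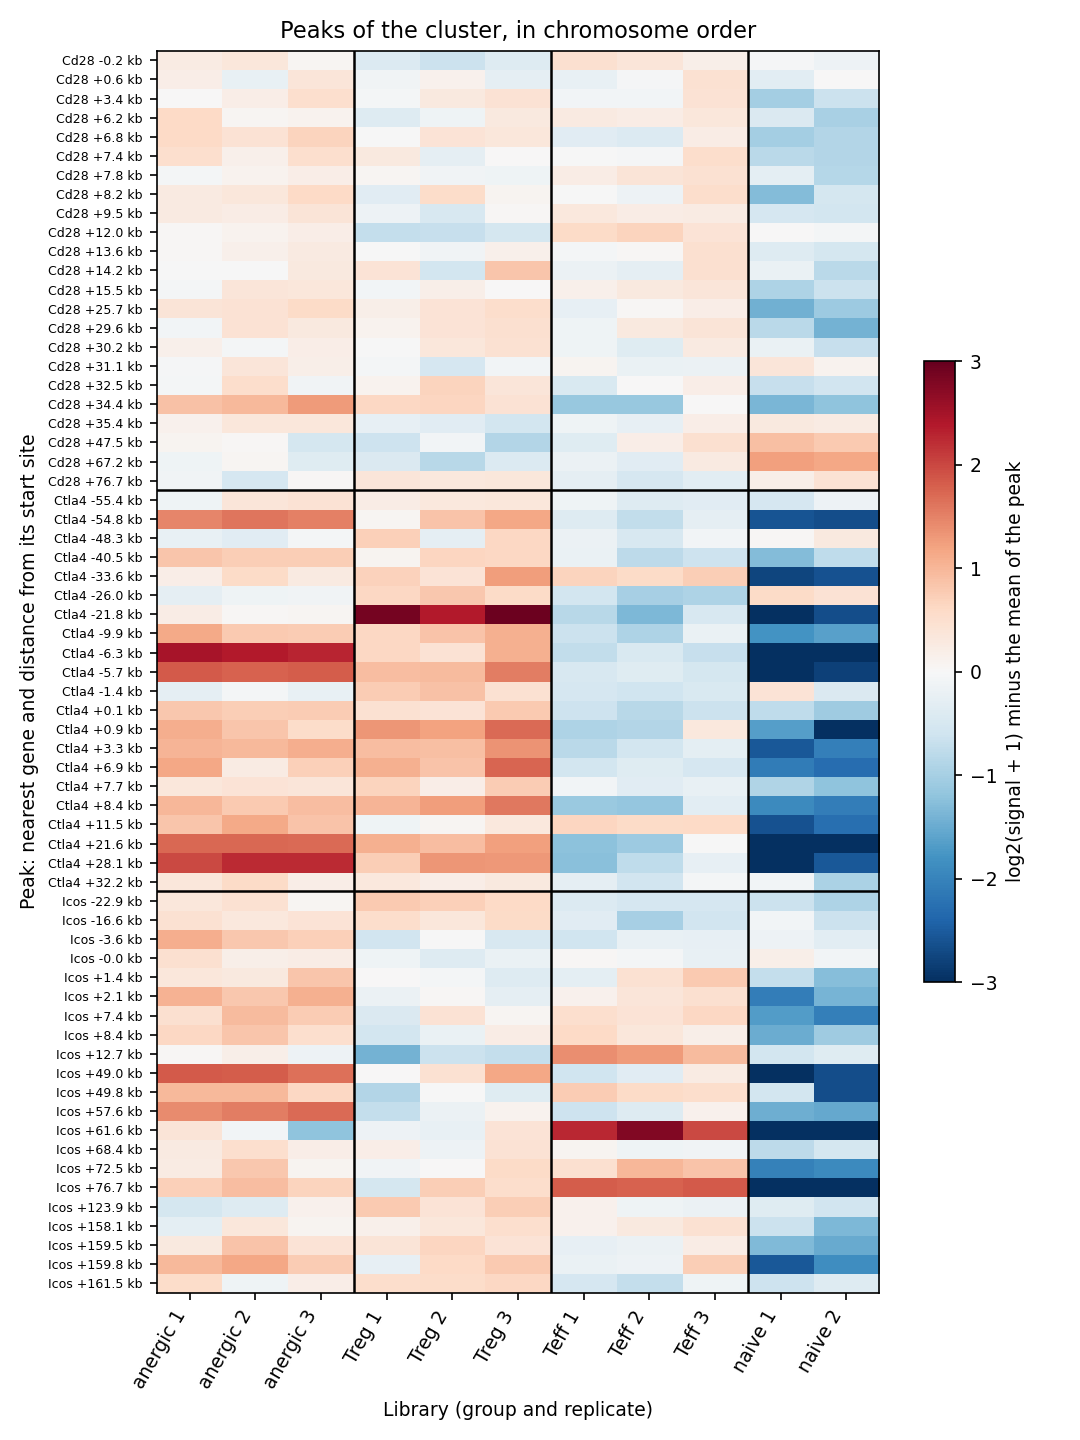
log2(signal + 1) of each of the 65 peaks minus that peak's mean over the 11 libraries (colour, from -3 in blue to 3 in red, with values beyond the scale drawn in the end colours), peaks in chromosome order down the page and libraries across. The naive columns are blue at most Ctla4 and Icos peaks, the Ctla4 block is red in anergic and Treg columns, and the Cd28 block is pale.

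Over the cluster as a whole, 27 of 65 peaks were higher and 3 lower in anergic than in Teff cells, where 15.9% of all peaks were higher and 16.8% lower, and the 27 became 18 without Teff replicate 2. In anergic over Treg cells 16 were higher and 5 lower, or 32.3% called, close to the 34.1% of all peaks. The 5 fell to 3 without anergic replicate 2, Treg replicate 1 or Treg replicate 3. In Treg over Teff cells 23 were higher and 8 lower (47.7% called, against 32.6% of all peaks), and the 8 fell to 5 without Treg replicate 1. The median log2 fold change of the 65 peaks was 0.33 for anergic over Teff and 0.23 for Treg over Teff, against -0.00069 and -0.02 over all tested peaks. Against naive cells it was 1.32 for anergic, 1.11 for Treg and 0.98 for Teff, while the medians over all peaks were -0.04, -0.04 and -0.03. The highest group mean fell in anergic cells at 31 of 65 peaks, in Treg cells at 21, in Teff cells at 10 and in naive cells at 3. Over all peaks the shares were 26.9% for anergic, 17.8% for Treg, 18.6% for Teff and 36.6% for naive cells. Naive cells had the lowest mean at 51 of the 65 peaks, against 32.9% of all peaks. Anergic cells had it at 0, against 26.3% of all peaks. The flanking gene Raph1, which lies upstream of Cd28, had 6 peaks, and its summed signal was 1655 ± 75.45 in anergic, 1631 ± 46.8 in Treg, 1583 ± 89.5 in Teff and 1495 ± 140 in naive cells. Its changes of sum were 0.02 to 0.15 on the log2 scale and none passed. Single Raph1 peaks were called in both directions. Of its 6 peaks, 1 was higher and 2 lower in anergic over naive cells (50% called, against 50.5% of all peaks). In Treg over naive cells 2 were higher and 2 lower (66.7%, against 45.3%), and in anergic over Treg cells 1 and 1 (33.3%, against 34.1%). In anergic over Teff and in Teff over naive cells 0 were higher and 1 lower (16.7%, against 32.8% and 40.1%). None was called in Treg over Teff cells, against 32.6%. Pard3b on the other side had no peak.

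Most cluster peaks lay outside genes. For Cd28, 12 of 23 were intronic, 9 intergenic, 1 lay in the 3' UTR and 1 spanned the start site. For Ctla4, 18 of 21 were intergenic, 2 intronic and 1 spanned the start site, and for Icos 15 of 21 were intergenic, 5 intronic and 1 spanned the start site. The 300-base windows were searched on both strands for AP-1 (TGANTCA), a BATF-IRF composite, NFAT (TGGAAAA), NF-kB, STAT5 (TTCNNNGAA), RUNX (TGTGGTT), ETS (CCGGAAG), forkhead (TGTTTAC), TCF and LEF (CCTTTGA), T-box (AGGTGTG), NR4A (AAGGTCA) and CTCF. The composite contains the AP-1 motif. AP-1 matches stood in 12 of 65 windows (18.5%, against 11.8% of all windows), RUNX matches in 13 (20%, against 11.2%), T-box matches in 10 (15.4%, against 7.2%) and NFAT matches in 7 (10.8%, against 5.97%). The NFAT match of the Ctla4 promoter lies outside the 300-base window of its peak and is not among these 7. ETS matches stood in 1 window (1.54%, against 7.44%).

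Of the remaining motifs, STAT5, forkhead and TCF and LEF each had a match in 3 windows (4.62%). Over all windows the shares were 7.7%, 4.02% and 5.67%. NR4A had a match in 4 windows (6.15%, against 4.27%). The composite, NF-kB and CTCF had matches in 0 windows, where 0.572%, 0.931% and 3.2% of all windows held one. T-box matches were found in 6 of the 21 Ctla4 windows, 2 Cd28 windows and 2 Icos windows, and AP-1 matches in 6 Icos, 4 Cd28 and 2 Ctla4 windows. These counts are descriptions of letters in the windows and carry no test.

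The other genes of the pathway were read from a list of 34, all with a peak, each by its summed signal. In anergic over Teff cells 5 were higher and 9 lower, where 13.4% of all genes were higher and 12.2% lower, with a median log2 fold change of 0.01, against 0.02 over all genes. In Treg over Teff cells 2 were higher and 14 lower (median -0.20, against -0.09 over all genes), where 10.8% of all genes were higher and 23.3% lower. In anergic over Treg cells 12 were higher and 4 lower (median 0.14, against 0.11), where 27.4% of all genes were higher and 9.96% lower. In anergic over naive cells 9 were higher and 12 lower (median -0.03, against -0.06), where 19.5% of all genes were higher and 22.9% lower. In Treg over naive cells 3 were higher and 16 lower (median -0.22, against -0.15), where 14.6% of all genes were higher and 33.7% lower. In Teff over naive cells 5 were higher and 6 lower (median -0.05, against -0.07), where 15.8% of all genes were higher and 18.5% lower.

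The other inhibitory receptors of the family were higher in anergic cells. Pdcd1, which encodes PD-1, averaged 2154 ± 211 in anergic, 1685 ± 70.1 in Treg, 1231 ± 62.8 in Teff and 1026 ± 21.1 in naive cells, with 0.80 ± 0.10, adjusted p = 4.34e-07 for anergic over Teff and 0.45 ± 0.10, adjusted p = 0.000943 for Treg over Teff. Btla, a receptor for HVEM, averaged 3812 ± 120.1 in anergic, 2271 ± 246 in Treg, 2176 ± 27.7 in Teff and 2008 ± 87.5 in naive cells. It was higher in anergic than in Teff cells (0.81 ± 0.09, adjusted p = 1.08e-07) and than in Treg cells (0.75 ± 0.09, adjusted p = 5.06e-07), while Treg over Teff was 0.06 ± 0.09, adjusted p = 0.679.

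Among the ligand genes, Cd86 was higher in Treg than in Teff cells (1.02 ± 0.16, adjusted p = 1.45e-05) and in anergic than in Teff cells (0.57 ± 0.16, adjusted p = 0.00715). Icosl was lower in anergic than in Teff cells (-0.59 ± 0.11, adjusted p = 0.000119), and for Cd80 anergic over Teff was 0.31 ± 0.24, adjusted p = 0.394. Of 18 kinases and adaptors, 1 was higher and 7 were lower in anergic than in Teff cells, where 13.4% of all genes were higher and 12.2% lower. The higher one was Lcp2, the adaptor SLP-76 (0.32 ± 0.09, adjusted p = 0.00848). The lower ones included Tec (-0.77 ± 0.14, adjusted p = 0.00012), which encodes a kinase downstream of the T cell receptor, and Grap2 (-0.67 ± 0.10, adjusted p = 8.76e-06), the adaptor GADS that binds CD28. Prkcq, the kinase PKC-theta that CD28 recruits, was lower as well (-0.34 ± 0.08, adjusted p = 0.00188).

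Of 7 genes for CTLA-4 trafficking and partners, Ptpn11, the phosphatase SHP-2, was higher in anergic than in Teff cells (0.71 ± 0.08, adjusted p = 2.4e-07) and Trat1, the adaptor TRIM, was lower (-1.01 ± 0.17, adjusted p = 4.49e-05). In Treg over Teff cells 5 of these 7 genes were lower and 0 higher, where 23.3% of all genes were lower and 10.8% higher. Lrba, which protects CTLA-4 from lysosomal breakdown, was among the lower ones (-0.30 ± 0.09, adjusted p = 0.0101). The 2 roquin genes Rc3h1 and Rc3h2, which repress Icos mRNA, passed in none of the 6 comparisons, with changes of -0.19 to 0.14. Il2, the cytokine that CD28 signals induce, averaged 559 ± 81.1 in anergic, 162 ± 46.1 in Treg, 559 ± 64.1 in Teff and 365 ± 93.2 in naive cells. Treg over Teff was -1.81 ± 0.19, adjusted p = 2.4e-08 and anergic over Teff was 0.00 ± 0.19, adjusted p = 0.995.

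Across the 11 libraries, the summed log2 signal of Cd28 and Icos had a Pearson r of 0.78, that of Ctla4 and Icos 0.66, and that of Cd28 and Ctla4 0.18, as descriptions that share groups and depth. Among 4557 other genes with at least 3 peaks, those most like Ctla4 were Sh3gl3 (0.993), Tnfrsf8 (0.993), Mdfic (0.992), Olfr521 (0.987) and Gm4832 (0.985). Those most like Icos were Gm7550 (0.979), Tyk2 (0.979), Atp2b4 (0.972), Glipr1 (0.972) and Mir21a (0.971). Those most like Cd28 were Pgap1 (0.964), Ptpn22 (0.959), Irf2bp2 (0.948), Lta (0.948) and Gtpbp8 (0.947).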

How the data were processed

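The deposited table holds the ATAC-seq signal of 38509 consensus peaks in 11 libraries. Reads were trimmed with Trimmomatic 0.38.1, aligned with Bowtie2 2.3.3.1 and called with Genrich 0.5, and DiffBind 2.10.0 built the consensus peaks, per the submitters' processing notes. The authors' signal values were scaled between libraries by a method not given in the sources used here. In every library 100% of the values were whole multiples of 1 read within 0.01, so reads could be recovered. No value lay under 1 read, and 17 to 31 peaks stood at 1 read in the anergic, Treg and Teff libraries, against 293 and 368 in the naive ones, so a peak at 1 read may hold none.

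Peaks, and the signal summed over the peaks nearest to each gene, were tested on log2(signal + 1) with limma 3.58.1 (R 4.3.3) in 1 fit of the 11 libraries with group as the only term. Adjusted p is Benjamini-Hochberg over 38493 peaks or 14233 genes after a filter on low values that removed 16 peaks and none of the 65, and a call is an adjusted p under 0.05. The added 1 shrinks fold changes of low peaks, while a library at 1 read can enlarge them. For Teff over naive, the Icos peak 76.7 kb downstream had 6.03, and 4.79 without naive replicate 2, which held 1 read. Ratios of signal to naive cells use recovered reads, with exact 95% intervals that cover counting error only. The alternatives were scaling by total reads in peaks or by TMM, edgeR 4.0.16 and DESeq2 1.42.0 on recovered reads, a pseudocount of 8, no filter, a mean of at least 50, the 2 groups of a comparison alone, a replicate block, and leaving out each library.

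The peaks given in every library were, for each gene, the one nearest to its start site, the one with the highest mean, and the called peak with the largest rise and the largest fall in each comparison. The members and gene lists were chosen with earlier results of these data known. Windows of 300 bases were read with samtools 1.23.1, and scripts were tested on simulated data.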

Additional observations from a re-analysis of the deposited data

How the results depend on the processing

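Of 24 results, the called peaks of the cluster and the summed signal of each gene in the 6 comparisons, 3 changed sign, all of them near 0 and none called in the report. Cd28 in anergic over Teff became -0.0299 under total reads in peaks, -0.0101 under TMM, -0.0094 by edgeR and -0.0238 by DESeq2, and ran from -0.0218 to 0.0417 when libraries were left out. Ctla4 in anergic over Treg became -0.0806 under total reads, -0.0512 under TMM, -0.0582 by edgeR and -0.0570 by DESeq2, and -0.0136 without Treg replicate 2. Cd28 in Treg over naive became 0.17 under total reads, where it passed with adjusted p = 0.0467 by limma, 0.16 under TMM, 0.16 by edgeR and 0.14 by DESeq2, and ran from -0.0668 to 0.0338 when libraries were left out. Scaling by total reads moved the median of all peaks by -0.13 in anergic over Treg, 0.10 in Treg over Teff and 0.17 in Treg over naive. The number of called cluster peaks ranged over 21 to 31 in anergic over Teff, 15 to 25 in anergic over Treg, 46 to 54 in anergic over naive, 27 to 34 in Treg over Teff, 45 to 56 in Treg over naive and 39 to 46 in Teff over naive. Replicate numbers do not mark shared animals in the labels, and deviations of same-numbered libraries correlated at -0.11 to 0.16; with the replicate block 27 cluster peaks were higher and 3 lower in anergic over Teff, and 17 higher and 5 lower in anergic over Treg. Over 87 called comparisons of 21 peaks and 1740 alternatives, 35 lost the call, in 14 comparisons, and 0 changed sign. Several alternatives could not turn a sign, since they leave the fold change of a peak as it was. These are the other filters, the 2 groups alone, and leaving out a library of a group outside the comparison. Most of the 21 peaks were also chosen for the largest called changes, so the count of signs says little. A pseudocount of 8 lowered values against naive cells, to 5.37 for the Ctla4 peak 6.3 kb upstream in anergic cells, where it was 6.08, and to 3.87 for the Icos peak 61.6 kb downstream in Teff cells, where it was 5.42. The naive libraries held 45734279 and 48101441 reads in peaks, within the range of the other libraries. They held 11 and 14 reads at this Ctla4 peak and 3 each at this Icos peak, against 1994 and 1940 at the Cd28 promoter peak. With 2 naive libraries, few naive reads limit the folds against naive cells at such low peaks. The cause of the changes was not tested.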
